A study of Mus musculus with 10 samples.

Results

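Taste receptors and trace amine receptors are G protein-coupled receptors that detect chemicals at the tongue and in the nose, and their transcripts were measured here in whole adult mouse brain. All probe sets that carried a single gene symbol beginning with Tas1r, Tas2r or Taar were taken, which gave 51 probe sets of 21789 with 1 symbol and of 35556 on the array. They stood for 50 genes: 3 Tas1r genes, 34 Tas2r genes (35 probe sets, as Tas2r117 had 2) and 13 Taar genes. RefSeq lists 59 genes with these prefixes for GRCm38.p6, 6 of them pseudogenes. Those without a probe set of their own here were Tas2r122, 5 Tas2r pseudogenes, Taar7a, Taar8a and Taar7c-ps.

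The study compared brains of young adult males whose mothers drank ethanol with those whose mothers drank water. All animals were C57BL/6J males, with no genetic change named, killed at postnatal day 70. Exposed animals had dams that drank 10% ethanol in water from gestational day 0 until the pups were 10 days old, and control dams had water alone, so the exposure had ended by the time the brains were taken. There were 2 independent experiments, each of 12 mice. In experiment 1 an array held RNA pooled from 3 mice (2 ethanol and 2 control arrays), and in experiment 2 RNA from 2 mice (3 ethanol and 3 control arrays). No source used here states whether litters were shared between pools. The p-values therefore measure the spread between these pools only. A pool also hides the spread between its mice.

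The Tas1r proteins work as pairs: Tas1r1 with Tas1r3 detects amino acids (umami), and Tas1r2 with Tas1r3 detects sugars. Tas2r proteins detect bitter compounds, and most mouse Tas2r genes lie side by side on chromosome 6. In taste cells both classes signal through gustducin (Gnat3), phospholipase C (Plcb2) and the cation channel Trpm5. The Taar genes lie together on chromosome 10. Taar1 responds to trace amines such as tyramine and phenylethylamine and acts on dopamine and serotonin neurons, while the other Taar genes encode odorant receptors of the olfactory epithelium that use the olfactory G protein (Gnal), adenylyl cyclase Adcy3 and the channel subunit Cnga2.

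The stretches of DNA just before these genes are shown for 4 members, because the genes described here differ from most genes in this feature and because Tas2r118, Tas2r126 and Taar7b carry some of the larger differences below, while Tas1r2 is of the sweet receptor type. The sequences are RefSeq's for GRCm38.p6, 5′ to 3′ on the gene's strand, 250 bases before the annotated start and the first 3 bases after it. Capitals mark each CG and, where the annotated start is a start codon, its ATG.
Tas2r118 (chr6:23970058-23970310, minus strand): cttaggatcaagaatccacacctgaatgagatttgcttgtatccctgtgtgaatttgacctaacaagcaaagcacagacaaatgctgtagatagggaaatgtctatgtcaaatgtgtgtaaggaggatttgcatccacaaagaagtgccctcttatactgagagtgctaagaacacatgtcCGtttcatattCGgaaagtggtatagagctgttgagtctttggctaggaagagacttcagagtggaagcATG
Tas2r126 (chr6:42434285-42434537, plus strand): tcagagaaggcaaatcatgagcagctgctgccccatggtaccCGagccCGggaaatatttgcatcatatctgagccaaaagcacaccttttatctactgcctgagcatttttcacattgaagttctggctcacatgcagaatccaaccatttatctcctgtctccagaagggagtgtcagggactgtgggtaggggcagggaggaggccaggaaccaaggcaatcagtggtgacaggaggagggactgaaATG
Taar7b (chr10:23999689-23999941, plus strand): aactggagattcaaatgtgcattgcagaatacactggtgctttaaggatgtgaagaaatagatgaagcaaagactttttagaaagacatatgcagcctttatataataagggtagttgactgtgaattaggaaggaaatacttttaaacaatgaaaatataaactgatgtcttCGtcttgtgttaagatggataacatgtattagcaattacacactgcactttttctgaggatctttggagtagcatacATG
Tas1r2 (chr4:139653288-139653540, plus strand): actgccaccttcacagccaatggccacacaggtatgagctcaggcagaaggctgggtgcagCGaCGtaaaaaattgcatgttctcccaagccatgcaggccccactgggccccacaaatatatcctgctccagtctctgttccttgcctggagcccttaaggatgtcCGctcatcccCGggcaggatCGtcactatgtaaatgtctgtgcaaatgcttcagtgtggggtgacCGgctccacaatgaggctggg

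The Tas2r118 and Tas2r126 windows hold 2 CG each, that of Taar7b 1 and that of Tas1r2 6. RefSeq's promoter table held 43 of the 50 genes, and the median over these was 1 CG in the 250 upstream bases (range 0 to 6), against 6 over 32851 promoters in the table. No CG was present in 15 of the 43 windows (34.9%), against 7.87% of all promoters and 44.2% of 948 olfactory receptor (Olfr) promoters. The median share of G and C was 36.4%, against 52.4% over all promoters. In 38 of the 43 genes (88.4%) the annotated start was the ATG itself, against 5.83% of all promoters and 72.4% for Olfr, so for most members the window lies before the coding start and may not be the promoter. The 3 Tas1r windows had 4 to 6 CG and none started at an ATG. The letters TATAAA, searched on both strands, were in 12 of the 43 windows (27.9%), against 12.4% of all promoters and 39.2% of Olfr promoters. A match of letters is only a description.

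The deposited values are log2 expression levels, and the members were read against the distribution of all probe sets on the same array, since the values carry no detection call and no test of signal over background could be made. The array lower quartile lay between 5.78 and 5.87 and the array median between 6.99 and 7.05. The 51 members had a median level of 5.77 over the 10 arrays, with a range from 4.97 to 7.52. The mean level was below the mean lower quartile (5.83) for 29 members (56.9%), against a background of 23.8% of all probe sets tested and, by construction, 95.2 percent of the dimmest 25% of them by mean level. Another 21 lay between quartile and median, and 1 lay above the median. On all 10 arrays 22 members were below that array's quartile, 18 were below it on none, and 11 on some. Since 22 of 51 means were not below the lower quartile, the set was not uniformly at the bottom of the array, and the values alone do not separate absent from faint transcripts. Fewer cells that express a gene and less RNA per cell cannot be told apart in whole brain.

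**Figure D1:**
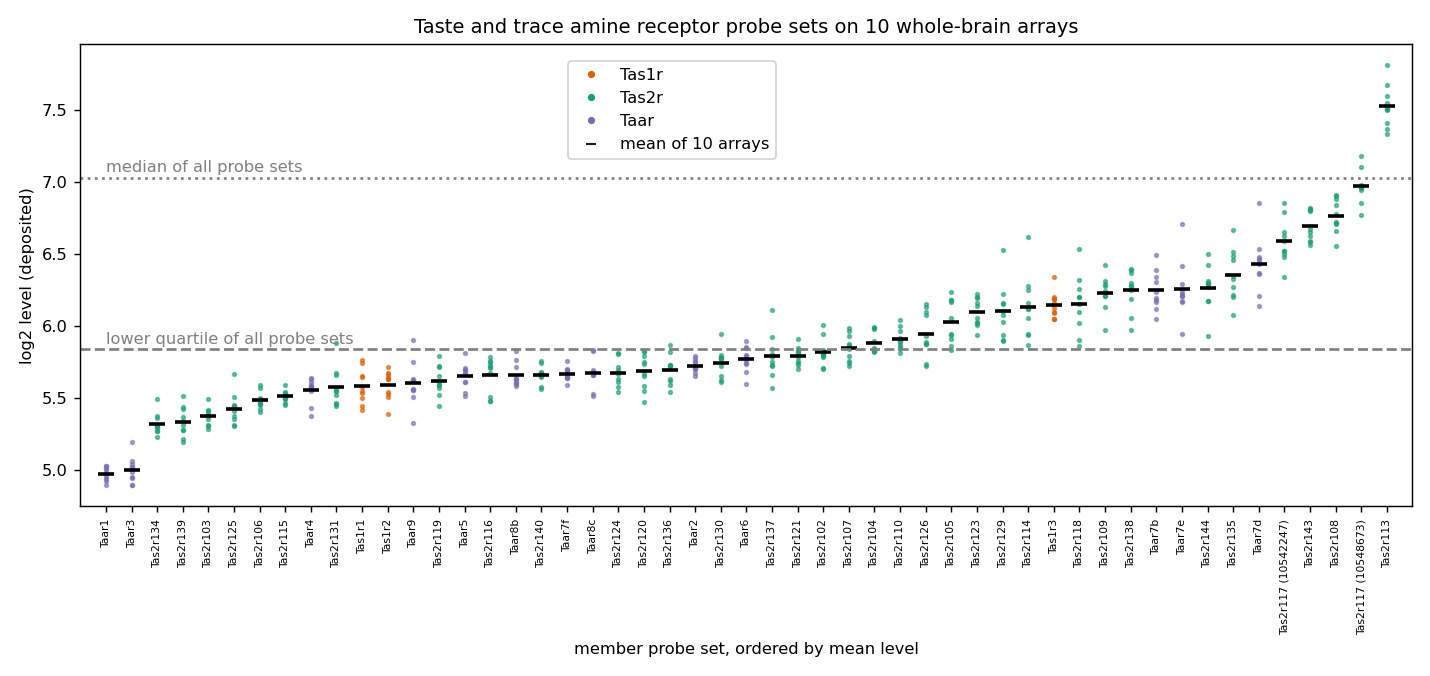
Log2 level of each of the 51 probe sets on the 10 arrays (points, coloured by family) and its mean (dash), ordered by mean; lines mark the mean array lower quartile (5.83) and median (7.03). Of the 51 means, 29 are below the lower quartile and 1, Tas2r113, is above the median.

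Low members were found in each family. Of the Taar probe sets 10 of 13 had a mean below the lower quartile (median level 5.67), of the Tas2r probe sets 17 of 35 (5.85), and of the Tas1r probe sets 2 of 3 (5.59). Other chemoreceptors lay in the same range: of 1214 probe sets for olfactory, vomeronasal and formyl peptide receptors, 44.2% were below the quartile and 97.0% below the median. In contrast, none of 13 measured receptors known from neurons, such as Gabbr1 (a GABA-B receptor subunit), was below the quartile, 12 were above the median, and their median level was 9.48.

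Taar1 was the lowest member. Its log2 levels were 4.95 and 5.01 on the ethanol arrays and 5.0 and 4.92 on the control arrays of experiment 1, and 4.89, 4.97 and 5.02 against 4.97, 4.93 and 5.03 in experiment 2. All 10 values lay below the lower quartile and the mean, 4.97, stood at the 0.720 percentile of all probe sets. Taar3, an olfactory receptor for amines, followed at 5.0, then the bitter receptors Tas2r134 (5.32) and Tas2r139 (5.33). The arrays of Taar1 and Taar3 covered overlapping ranges.

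At the other end stood Tas2r113, a bitter receptor. Its levels were 7.55 and 7.41 on the ethanol arrays and 7.33 and 7.81 on the control arrays of experiment 1, and 7.50, 7.50 and 7.67 against 7.59, 7.50 and 7.37 in experiment 2. All 10 values were above their array's median, the groups overlapped in both experiments (difference 0.00 ± 0.08, SE), and the mean of 7.52 was at the 56.9 percentile. One of the Tas2r117 probe sets (probe set 10548673) came next with 6.97, followed by Tas2r108 (6.76) and Tas2r143 (6.69). The other Tas2r117 probe set (10542247) had 6.59. At the boundary, Tas2r102 lay just below the mean lower quartile (5.82) and Tas2r107 just above it (5.85). Many Tas2r, Taar7 and Taar8 genes are close copies, and a probe set named for 1 of them may take up signal from another.

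Markers of brain cells were high and those of taste cells low. All 5 neuronal and all 7 glial markers measured were above the array median. Of 6 taste and tuft cell markers, 5 had a mean below the lower quartile and none was above the median (5.37 for Trpm5 to 5.91 for Pkd2l1). The mean of 9 olfactory mucosa markers ran from 5.88 to 7.63 over the arrays, highest on control array 2 and ethanol array 1 of experiment 2 (7.63 and 7.48, against 5.88 to 6.19 on the other 4 arrays of that experiment). On that ethanol array the high mean came mainly from Obp2a (10.7) and Obp1a (10.1). Cyp2g1, Stoml3 and Omp were at 6.05, 6.65 and 6.36 there, against 8.72, 8.87 and 7.03 on the control array. Both arrays are called high in olfactory mucosa markers by this mean alone. The mean of the pituitary hormone transcripts Gh, Prl and Cga ran from 6.91 to 11.9 on the ethanol arrays and from 5.66 to 7.69 on the controls, and all 6 pituitary markers had a higher ethanol mean. In experiment 1 the mean of Gh, Prl and Cga was high on both ethanol arrays (10.7 and 9.08, against 5.66 and 5.91 on the controls). In experiment 2 the high value was on ethanol array 2 alone (11.9). Ethanol arrays 1 and 3 had 6.91 and 6.95, against 6.87, 6.78 and 7.69 on the controls. The part of the olfactory mucosa and pituitary markers in the receptor differences was not tested, beyond leaving out both arrays high in olfactory mucosa markers, given with experiment 2.

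Over both experiments, the receptors were slightly higher on the ethanol arrays as deposited. A positive difference was seen for 44 of 51 probe sets (86.3%), against a background of 45.6 percent of all probe sets tested and 79.3 percent of the dimmest 25%. The median difference was 0.07 log2 units (range -0.05 to 0.28), against -0.01 over all tested and 0.04 over the dimmest 25%. By limma with a term for the experiment, 0 members passed Benjamini-Hochberg adjusted p 0.05 (smallest 0.306), against a background of 0 percent of all tested. At an unadjusted p under 0.05, 11 members were higher and 0 lower, where the background was 4.72 percent higher and 7.68 percent lower over all tested, and 8.55 and 0.441 percent in the dimmest 25%. With each array left out in turn the count ran from 5 to 12. It was lowest without control array 1 of experiment 1 (5), control array 1 of experiment 2 (6) and control array 3 of experiment 2 (7). The 11 were 8 bitter receptors (Tas2r107, Tas2r118, Tas2r123, Tas2r126, Tas2r129, Tas2r136, Tas2r139 and Tas2r144) and 3 Taar7 genes (Taar7b, Taar7d and Taar7e). Of these genes, only Tas2r118 and Tas2r126 stayed under that unadjusted p with each array left out.

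The level of the dim end of the array itself differed with treatment. The ethanol arrays had a lower quartile that exceeded that of the controls by 0.0468 log2 units (two-sided exact permutation test within experiments, p = 0.0167, the smallest that its 120 assignments allow). It averaged 5.86 against 5.81 in experiment 1 and 5.85 against 5.81 in experiment 2. The permutation test was not among the tests set out beforehand. Rescaling the arrays lowered the receptors' share. After quantile normalization 37 of 51 were higher (72.5%; dimmest 25%, 51.5%, other chemoreceptors 58.6%, all tested 41.4%). After centring on the array median the count was 39 (76.5%; 60.6%, 65.7% and 31.8%), and after centring on the lower quartile 36 (70.6%; 45.7%, 56.6% and 23.6%). The median difference then was 0.03, 0.04 and 0.02, and 2 members, Tas2r126 and Tas2r118, were higher at an unadjusted p under 0.05 in each of the 3 (3.92% of the members). The background at that p was then 2.21%, 1.95% and 1.16% of all tested and 2.18%, 2.77% and 1.45% of the dimmest 25%, in the same order.

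**Figure D2:**
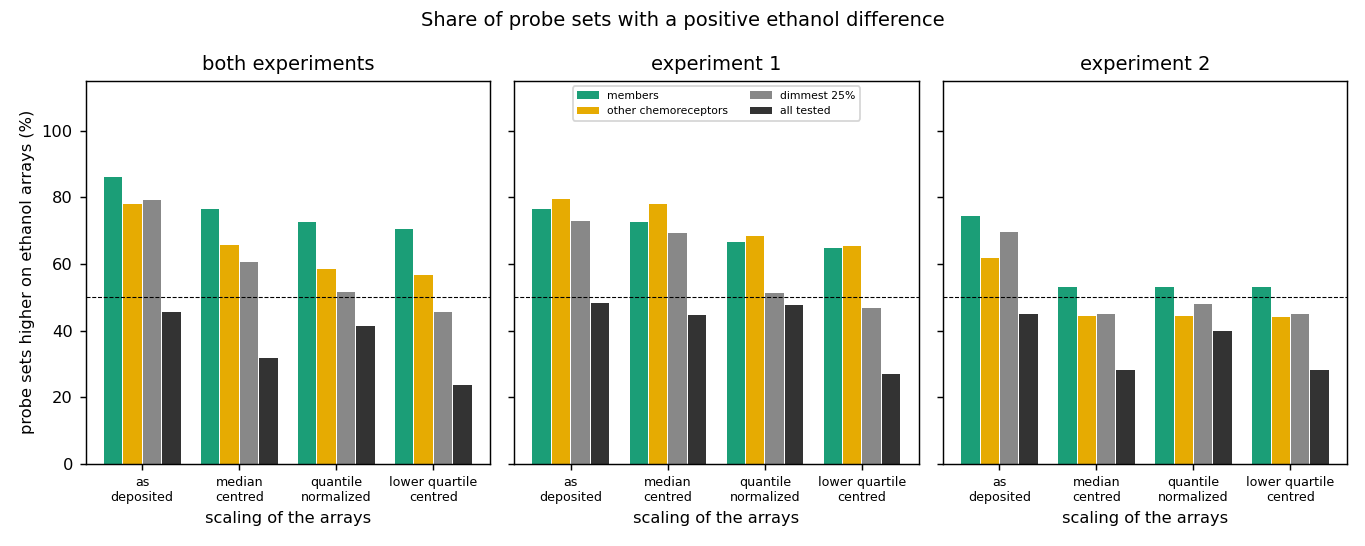
Percent of probe sets with a positive ethanol minus control difference, for the 51 members, other chemoreceptors, the dimmest 25% and all tested, under 4 scalings of the arrays and in 3 comparisons; the dashed line marks equal shares. The members' bars fall from 86.3% to 70.6% over both experiments when arrays are centred on the lower quartile, and the other groups fall too.

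In the median of the members, the small offset was seen on each ethanol array. With the control mean of its experiment set at 0, the median of the 51 members lay at 0.07 and 0.10 in the ethanol pools of experiment 1 and at 0.04, 0.05 and 0.05 in those of experiment 2. On the control arrays it was -0.02 and 0.02, and -0.01, 0.02 and -0.02. By this median all 5 ethanol arrays lay above all 5 controls. With 2 controls in experiment 1, their values mirror each other by construction. The number of members above their control mean was 35 and 38 on the ethanol arrays and 17 and 34 on the controls of experiment 1. In experiment 2 it was 31, 37 and 37 against 22, 38 and 22, so there the counts overlapped. The array lower quartile, also minus its control mean, was 0.06 and 0.06, then 0.03, 0.03 and 0.05 on the ethanol arrays. On the controls it was -0.03 to 0.03, so it moved with the receptors' median. Its part in the receptors' offset was not separated further than by the scalings above.

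**Figure D3:**
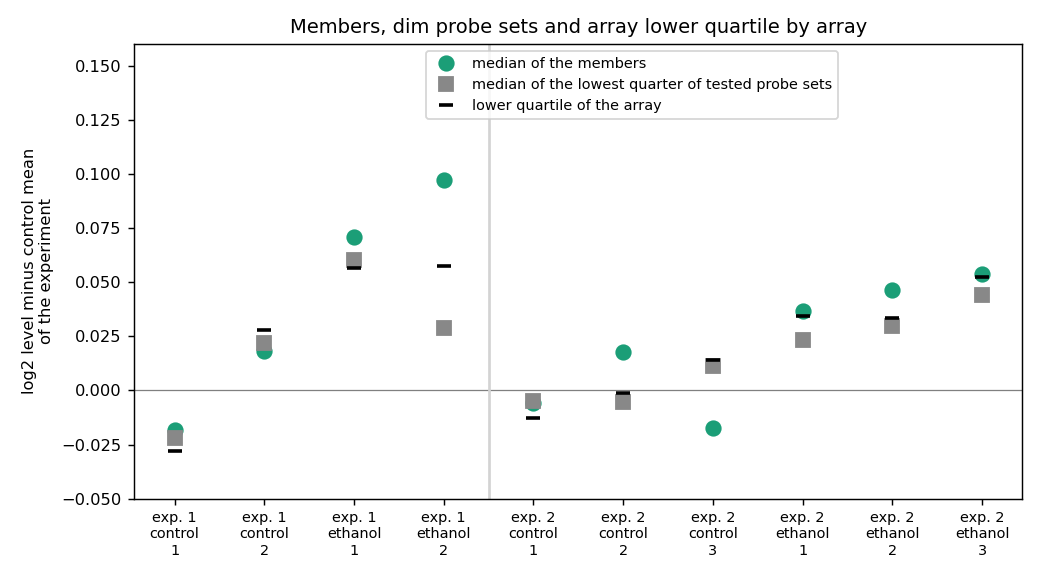
Median over the 51 members, over the dimmest 25% of tested probe sets, and the array lower quartile, each minus the mean of the control arrays of its experiment, for each of the 10 arrays in log2 units. Ethanol arrays sit at 0.04 to 0.10 for the members, and control arrays between -0.02 and 0.02.

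The sweet and umami receptors showed small differences. For Tas1r1 the levels were 5.57 and 5.55 on the ethanol arrays and 5.44 and 5.76 on the controls of experiment 1, and 5.64, 5.53 and 5.74 against 5.50, 5.42 and 5.65 in experiment 2. For Tas1r2 they were 5.66 and 5.53 against 5.63 and 5.54, and 5.63, 5.71 and 5.64 against 5.67, 5.38 and 5.50. For Tas1r3, the subunit shared by both receptors, they were 6.04 and 6.34 against 6.05 and 6.15, and 6.18, 6.19 and 6.10 against 6.09, 6.20 and 6.12. The groups overlapped in both experiments for all 3 genes. The differences over both experiments were 0.05 ± 0.07 (SE) for Tas1r1, 0.09 ± 0.06 for Tas1r2 and 0.05 ± 0.06 for Tas1r3, with adjusted limma p of 0.763, 0.534 and 0.747. In experiment 1 their median difference was 0.01 and changed sign to -0.04 after quantile normalization and -0.05 after centring on the lower quartile.

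Among the bitter receptors 31 of 35 probe sets were higher on the ethanol arrays over both experiments (median 0.08) and 8 of them had an unadjusted p under 0.05. The background was 45.6 percent higher and 4.72 percent at that p over all tested, and 79.3 and 8.55 percent in the dimmest 25%. After quantile normalization, median centring and lower quartile centring 26, 28 and 26 of the 35 were higher, with 2 at that p under each. Tas2r126 had the smallest p. Its levels were 6.15 and 5.87 on the ethanol arrays and 5.87 and 5.89 on the controls of experiment 1, and 6.09, 6.13 and 6.07 against 5.93, 5.72 and 5.73 in experiment 2. The groups overlapped in experiment 1, and in experiment 2 all ethanol arrays were above all controls. The difference was 0.24 ± 0.06 log2 units (SE; limma adjusted p = 0.306), with 0.13 ± 0.09 in experiment 1 and 0.30 ± 0.08 in experiment 2.

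Tas2r118, whose gene stands apart from the other bitter receptors on chromosome 6, had the largest difference. Its levels were 6.31 and 6.53 on the ethanol arrays and 5.86 and 5.90 on the controls of experiment 1, and 6.20, 6.15 and 6.25 against 6.10, 6.20 and 6.02 in experiment 2. Both ethanol arrays of experiment 1 stood well above its controls, and in experiment 2 the groups overlapped. The difference over both experiments was 0.28 ± 0.08 (limma adjusted p = 0.306). It was 0.54 ± 0.08 in experiment 1 (limma adjusted p = 0.171) and 0.10 ± 0.07 in experiment 2, and the difference between experiments was -0.45 ± 0.11 (adjusted p = 0.665).

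The next by p were Tas2r139, Tas2r144, Tas2r123 and Tas2r107. Tas2r139 had 5.51 and 5.27 against 5.21 and 5.34 in experiment 1, and 5.44, 5.36 and 5.42 against 5.19, 5.31 and 5.28 in experiment 2, where all ethanol arrays were higher. Its difference was 0.14 ± 0.05. Tas2r144 had 6.42 and 6.30 against 6.17 and 6.17, and 6.31, 6.50 and 6.27 against 6.29, 6.29 and 5.93, so that the groups overlapped in experiment 2 alone. Its difference was 0.19 ± 0.07, and those of Tas2r123 and Tas2r107 were 0.13 ± 0.05 and 0.12 ± 0.05. The limma adjusted p of all 4 lay between 0.35 and 0.367.

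The bitter receptors with the smallest p in the lower direction were Tas2r121 (-0.05 ± 0.05), Tas2r115 (-0.04 ± 0.04) and Tas2r116 (-0.04 ± 0.07). Each difference was about its standard error or less. The Tas2r117 probe sets disagreed, with -0.01 ± 0.09 for probe set 10542247 and 0.12 ± 0.06 for probe set 10548673 (limma adjusted p = 0.428). For the dim Tas2r134 the difference was 0.06 ± 0.05, and for the brighter Tas2r108 and Tas2r143 it was 0.12 ± 0.06 and 0.07 ± 0.06.

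By genomic neighbourhood in RefSeq's order, genes no more than 5 Mb apart were grouped. A chromosome 6 group of 8 bitter receptor genes (Tas2r108, Tas2r126, Tas2r135, Tas2r137, Tas2r138, Tas2r139, Tas2r143 and Tas2r144) was higher in 8 of 8 over both experiments, with a median of 0.14. The larger chromosome 6 group, of 24 probe sets for 23 genes, was higher in 20 of 24, with a median of 0.06. In experiment 2 the counts were 8 of 8 (median 0.15) and 17 of 24 (0.04), and in experiment 1 they were 6 of 8 (0.12) and 15 of 24 (0.08). The background shares higher were 45.6 percent of all tested and 79.3 percent of the dimmest 25% over both experiments, 45.1 and 69.5 percent in experiment 2, and 48.2 and 73.0 percent in experiment 1. These groups were not tested against each other.

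Among the trace amine receptors 10 of 13 were higher over both experiments, with a median of 0.05 and 3 at an unadjusted p under 0.05, all of them olfactory receptors of the Taar7 group. The background was 45.6 percent higher and 4.72 percent at that p over all tested, and 79.3 and 8.55 percent in the dimmest 25%. Under each of the 3 scalings 8 of 13 were higher and 0 had an unadjusted limma p under 0.05, with medians of 0.0024 after quantile normalization, 0.020 after median centring and 7.73e-04 after lower quartile centring. Without both arrays high in olfactory mucosa markers 1 Taar probe set was under that p. Taar7b had 6.33 and 6.16 on the ethanol arrays and 6.18 and 6.30 on the controls of experiment 1, and 6.24, 6.49 and 6.39 against 6.05, 6.12 and 6.19 in experiment 2. Taar7d had 6.36 and 6.85 against 6.36 and 6.13, and 6.43, 6.48 and 6.53 against 6.20, 6.46 and 6.46. Taar7e had 6.71 and 6.17 against 5.94 and 6.21, and 6.41, 6.29 and 6.23 against 6.22, 6.20 and 6.17. For Taar7b and Taar7e all ethanol arrays of experiment 2 were above its controls, and all 3 overlapped in experiment 1. In experiment 1 the higher ethanol array was array 2 for Taar7d and array 1 for Taar7b and Taar7e. The differences were 0.15 ± 0.07, 0.21 ± 0.09 and 0.21 ± 0.09 (limma adjusted p = 0.38, 0.398 and 0.385).

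Taar1, the member known from monoamine neurons, had a difference of 0.00 ± 0.04 (limma adjusted p = 0.997), with 0.02 ± 0.07 in experiment 1 and -0.01 ± 0.06 in experiment 2. Its sign turned to -0.01, -0.03 and -0.05 under the 3 scalings. Taar3 had 4.89 and 5.19 against 4.89 and 5.02 in experiment 1, and 4.95, 4.94 and 4.98 against 5.06, 5.04 and 5.02 in experiment 2. It was the 1 member whose ethanol arrays in experiment 2 all lay below the controls (-0.08 ± 0.07). Taar4 had -0.01 ± 0.06 over both experiments.

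**Figure D4:**
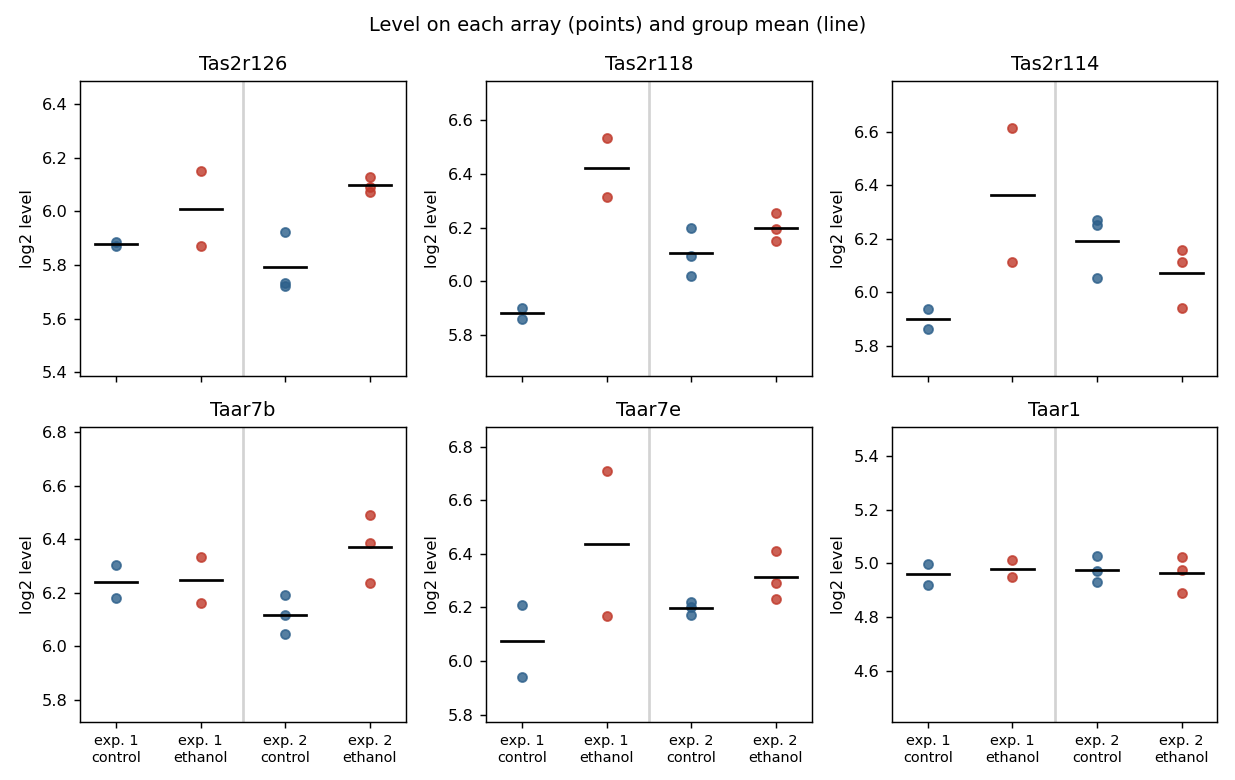
Log2 levels of selected members on each of the 10 arrays, ethanol and control side by side in experiments 1 and 2, with group means as lines. Tas2r118 reaches 6.31 and 6.53 in the ethanol pools of experiment 1, and Taar1 stays between 4.89 and 5.03.

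Within experiment 1, 39 of 51 members were higher on the ethanol arrays (background 48.2 percent of all tested and 73.0 percent of the dimmest 25%), with a median of 0.12 and a range from -0.15 to 0.54. At an unadjusted limma p under 0.05, 10 were higher and 0 lower (background 4.02 and 4.93 percent, and 8.39 and 0.385 percent in the dimmest 25%), and 0 passed the adjustment (background 0 percent, smallest adjusted p 0.171). The split by family was 13 of 13 Taar (median 0.12), 24 of 35 Tas2r (0.12) and 2 of 3 Tas1r. Without control array 1 the median was 0.06, and without ethanol array 2 the median was 0.07. Without ethanol array 1, 16 members had an unadjusted p under 0.05 (31.4%, against 6.49% of all tested and 10.7% of the dimmest 25% in that fit) and 4 an adjusted p under 0.05: Tas2r118 (0.65), Tas2r114 (0.71), Tas2r129 (0.63) and Taar7d (0.60), with 1.08% of all tested and 1.27% of the dimmest 25% called. In that fit the lone ethanol array was assumed to vary like the other groups.

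Within experiment 2, 38 of 51 were higher (background 45.1 percent of all tested and 69.5 percent of the dimmest 25%), with a median of 0.05 and a range from -0.12 to 0.30. At an unadjusted limma p under 0.05, 5 were higher and 0 lower (background 3.78 and 6.19 percent, and 4.77 and 0.624 percent in the dimmest 25%), and 0 passed the adjustment (background 0 percent, smallest adjusted p 0.310). The split by family was 7 of 13 Taar (median 6.1e-04), 28 of 35 Tas2r (0.07) and 3 of 3 Tas1r (0.12). Under each of the 3 scalings 27 of 51 were higher (52.9%, median 0.01), and the Taar median turned to -0.04. After quantile normalization, median centring and lower quartile centring the shares were 48.0%, 45.1% and 44.8% of the dimmest 25% and 39.9%, 28.3% and 28.1% of all tested. Without control array 3 the median over the members was 0.03. Without both arrays high in olfactory mucosa markers, a choice made after seeing the data, 41 of 51 members were higher and 3 had an unadjusted p under 0.05. The share over all tested without those arrays is not given here.

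In experiment 1 all ethanol arrays were above all controls for 15 members (background 15.1 percent of all tested, 28.3 percent of the dimmest 25%), and below for 0 (19.2 and 5.67 percent). In experiment 2 the numbers were 8 above (7.62 and 13.5 percent) and 1 below (11.6 and 2.07 percent). In both experiments at once 0 members were separated upward (1.47 and 3.56 percent) and 0 downward (2.82 and 0.257 percent). The 15 members separated in experiment 1 and the 8 in experiment 2 thus had no gene in common. The members' shares separated upward, 29.4% in experiment 1 and 15.7% in experiment 2, were slightly above those of the dimmest 25% and above those of all tested. The shares separated downward, or in both experiments at once, lay below both backgrounds. Of the 51 members, 21 had a mean level above the dimmest 25%, so these are not a fully matched background.

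Across the 51 members the ethanol difference in experiment 1 did not rise with that in experiment 2. The correlation across probe sets was -0.196 (Pearson) and -0.165 (Spearman), against a Pearson r of 0.223 over all tested and -0.00647 over the dimmest 25%, and it is a description, as genes on the same arrays are not replicates. Of the members 29 were higher in both experiments (56.9%, against 51.0% of the dimmest 25% and 25.4% of all tested), 3 were lower in both and 19 went in opposite directions. The ethanol difference was larger in experiment 2 for 21 of 51 members (background 47.3 percent of all tested and 42.5 percent of the dimmest 25%). This gap had an unadjusted limma p under 0.05 for 6 members, 4 larger in experiment 1 and 2 larger in experiment 2 (background 3.24 and 3.33 percent, and 3.32 and 1.38 percent in the dimmest 25%), and 0 passed the adjustment (background 0 percent, smallest adjusted p 0.665).

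**Figure D5:**
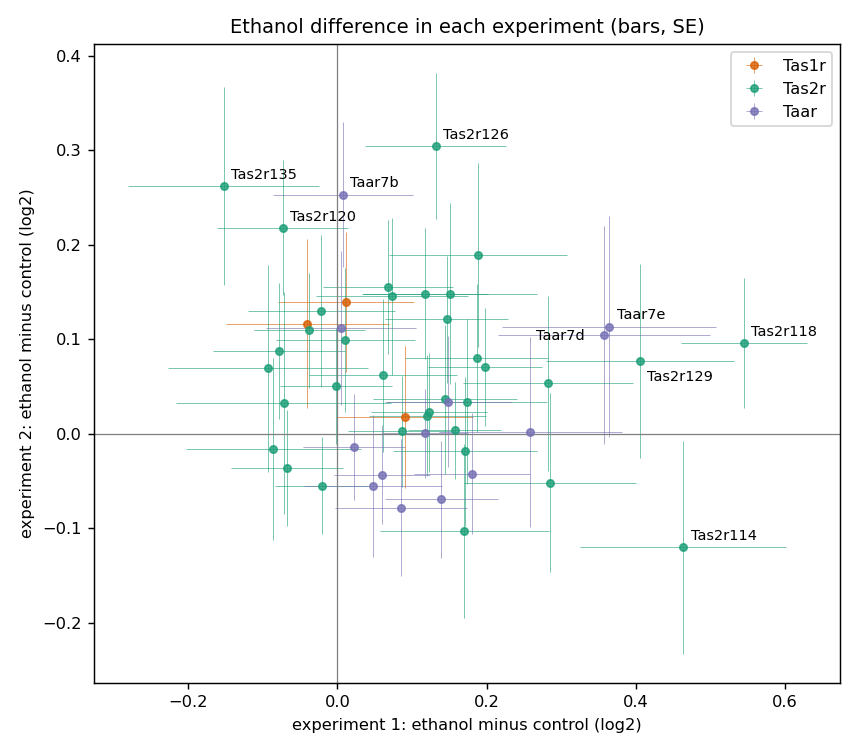
Ethanol minus control difference of each of the 51 probe sets in experiment 1 (horizontal) and experiment 2 (vertical), in log2 units with SE bars, coloured by family. The points form no diagonal; Tas2r118 (0.54 and 0.10) and Tas2r114 (0.46 and -0.12) lie far to the right and Tas2r126 (0.13 and 0.30) at the top.

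Besides Tas2r118, the members with the smallest p for that difference were Tas2r114 and Tas2r120. Tas2r114 had 6.11 and 6.61 on the ethanol arrays and 5.86 and 5.94 on the controls of experiment 1, and 6.11, 5.94 and 6.16 against 6.25, 6.27 and 6.05 in experiment 2. Ethanol arrays were higher in experiment 1 with no overlap (0.46 ± 0.14, limma adjusted p = 0.384), and the groups overlapped in experiment 2 (-0.12 ± 0.11). The difference between experiments was -0.58 ± 0.18 (limma adjusted p = 0.665; without ethanol array 1 of experiment 1, -0.83 with adjusted p = 0.0325; without ethanol array 2, -0.33 with adjusted p = 0.652). The experiment 1 value was 0.71 without ethanol array 1 and 0.21 without ethanol array 2. Tas2r120 had 5.55 and 5.75 against 5.65 and 5.79, and 5.82, 5.82 and 5.73 against 5.47, 5.58 and 5.67. It was separated upward in experiment 2 alone (0.22 ± 0.07, against -0.07 ± 0.09 in experiment 1; difference 0.29 ± 0.11).

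The partners of these receptors were described from lists drawn from textbook knowledge. Of 22 probe sets for taste transduction genes (21 of 22 genes measured), 14 were higher (background 45.6 percent of all tested), with a median of 0.03. That median turned to -0.0046, -9.94e-04 and -0.020 after quantile normalization, median centring and lower quartile centring. The median over all tested was then -0.013, -0.036 and -0.055. At an unadjusted p under 0.05, 2 were higher and 1 lower (background 4.72 percent higher and 7.68 percent lower over all tested). They were P2rx2, an ATP receptor of taste nerves (0.10 ± 0.04), Pou2f3, the factor that specifies sweet, umami and bitter taste cells (0.10 ± 0.05), and Car4, a carbonic anhydrase (-0.10 ± 0.04). Those with the highest mean levels, the G protein subunit Gnb1 (0.04 ± 0.04) and the receptor transport factor Reep2 (-0.03 ± 0.04), are also expressed by neurons. The core taste genes Gnat3, Plcb2 and Trpm5 were below the lower quartile on all 10 arrays, with differences of 0.04, 0.08 and 0.02.

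Of 14 probe sets for olfactory transduction genes (11 of 12 genes measured), 5 were higher (background 45.6 percent of all tested), with a median of -0.01. With 1 array left out the median ran from -0.022 to 0.015 and the count from 4 to 9, with 9 without ethanol array 2 of experiment 1 or control array 2 of experiment 2 and 8 without ethanol array 1 of experiment 2. The median was -0.022, -0.042 and -0.061 after quantile normalization, median centring and lower quartile centring. Over all tested the median was then -0.013, -0.036 and -0.055. A single probe set of Cngb1, a subunit of the olfactory and rod channels, had an unadjusted limma p under 0.05 (0.15 ± 0.07). The background was 4.72 percent higher at that p over all tested. The other Cngb1 probe sets had -0.0048, 0.097 and -0.026 and were not under that p. Gnal, the olfactory G protein that is also made in the striatum, had -0.03 ± 0.05. Without both arrays high in olfactory mucosa markers 9 of 14 were higher, with the share over all tested not given here. Of 17 probe sets for trace amine and monoamine metabolism and Taar1 partners (17 of 18 genes measured), 4 were higher (background 45.6 percent of all tested), with a median of -0.07. Quantile normalization left 4 higher (median -0.056), median centring 2 (-0.102) and lower quartile centring 1 (-0.121). The share higher over all tested fell as well, to 41.4%, 31.8% and 23.6% in the same order. With 1 array left out the median ran from -0.076 to -0.044 and the count from 2 to 5. The median was -0.044 without control array 1 of experiment 1, -0.045 and -0.046 without control arrays 1 and 2 of experiment 2, and -0.049 without its ethanol array 2, and the count was 2 without control array 2 of experiment 1. Th, tyrosine hydroxylase of catecholamine synthesis, had -0.24 ± 0.10 and Akt1, a kinase, -0.10 ± 0.04, both lower at an unadjusted p under 0.05 (background 7.68 percent of all tested). Maoa, monoamine oxidase A, had -0.09 ± 0.04. None of these lists had a member at an adjusted p under 0.05. Of the 13 neuronal receptors 9 were higher (69.2%, against 45.6 percent of all tested), with a median of 0.04. After centring on the lower quartile 4 were higher (background 23.6% of all tested), with a median of -0.01.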

How the data were processed

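Per the labels' protocols, total RNA of whole brains (200 ng per array) was hybridised to whole-transcript arrays from Affymetrix. The authors deposited log2 expression levels for 35556 probe sets on 10 arrays; the submitters' processing notes name Partek 6.6, and no source used here gives the background correction, normalization or genome build. In the deposited log2 values each probe set had the same mean in both experiments, to within 5.83e-05, so levels cannot be compared between experiments. Array correlations were 0.989 to 0.996.

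Gene symbols came from the platform annotation, and the 21789 with 1 symbol (19938 genes) were tested. All 50 member genes matched RefSeq (GRCm38.p6) by Entrez identifier. Differences are ethanol minus control, fitted with limma 3.58.1 in R 4.3.3 (lmFit, eBayes) over all tested probe sets with Benjamini-Hochberg adjustment: a model of experiment and treatment for both experiments, and group means for each experiment and their difference. The median standard error of a member was 0.0606 log2 units over both experiments, 0.0933 in experiment 1 and 0.0762 in experiment 2; the number of arrays limits this precision. The fit was tested on simulated data. The dimmest 25% are the 5448 tested probe sets with the lowest mean level over all arrays.

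The members and gene lists were chosen with earlier results of these data known. Genes named were all Tas1r, Taar1, Tas2r118, the 6 smallest p in each direction, the 4 highest and 4 lowest levels, the 3 smallest p between experiments, and of each pathway list up to 3 by p and 2 by level; the Taar7 genes, Tas2r129, the core taste genes and the members listed in counts were named after their values were seen. Alternatives were other scalings, probe set choices, filters, priors, weights, the replicate block and each array left out. Figures were drawn with matplotlib 3.10.9.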

Additional observations from a re-analysis of the deposited data

How the results depend on the processing

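With no setting tried did a member pass adjusted p 0.05 over both experiments or in experiment 2, and the number of members below the lower quartile stayed at 29 to 30 with each array left out (50 lie below the array median). The following values differed from those reported. The number of members higher at an unadjusted p under 0.05 over both experiments was 2 after quantile normalization (with 1 lower), median centring and lower quartile centring, and 6 with all probe sets tested. In experiment 1 it was 5 and 4 after quantile normalization and lower quartile centring. The background there was 2.94% and 1.45% of all tested, and 3.56% and 2.61% of the dimmest 25%. The experiment 1 count was 5 with all probe sets, 6 above the 25th percentile of level, 6 with array weights and 5 with experiment 1 fitted alone. In experiment 2 the count was 3 with all probe sets, above the 25th percentile, with weights by mice per pool and without both olfactory mucosa arrays. Outside the scalings, background shares for these settings are not given here, so those counts describe the members only. The median difference after quantile normalization, median centring and lower quartile centring was 0.025, 0.042 and 0.023 over both experiments and 0.0149, 0.0138 and 0.0134 in experiment 2, and 0.068 after quantile normalization and 0.060 after lower quartile centring in experiment 1. The 21 members above the 25th percentile of level had 20 higher over both experiments (median 0.12), 16 in experiment 1 (0.15) and 19 in experiment 2 (0.10). Fewer members enter there. The share higher among other probe sets above that level is not given here. The dimmest 25% lie below that level, so they are no matched background for these 21.

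With each array left out in turn, the median over both experiments ran from 0.0498 to 0.0793 and the number at an unadjusted p under 0.05 from 5 to 12. In experiment 1 the median ran from 0.0580 to 0.142, the number higher at that p from 4 to 16, the number lower from 0 to 2 and the number at adjusted p under 0.05 from 0 to 4. In experiment 2 the median ran from 0.0328 to 0.0653. Of these left-out fits, background shares are given only for the fit without ethanol array 1 of experiment 1. Differences near 0 changed sign. Over both experiments Taar1 became -0.0092, -0.027 and -0.046 under quantile normalization, median centring and lower quartile centring and -0.0097 with array weights, and Tas2r113 became -3.02e-04, -0.023 and -0.042 under those scalings and -0.012 with weights by mice per pool. Tas1r3 became -2.25e-04 with lower quartile centring, Taar3 0.0035 with weights by mice per pool and 0.0058 without both olfactory mucosa arrays, Tas2r116 0.021 without those arrays, and Tas2r117 (probe set 10542247) 0.027 with array weights. With each array left out, the ranges were -0.0145 to 0.0223 for Taar1, -0.0737 to 0.0180 for Taar3, -0.0554 to 0.0342 for Taar4, -0.0058 to 0.0855 for Tas1r3, -0.0548 to 0.0935 for Tas2r113, -0.0174 to 0.181 for Tas2r114, -0.0909 to 0.0041 for Tas2r116, -0.0781 to 0.0628 for Tas2r117 (probe set 10542247), and -0.172 to 0.0254 for Tas2r120 in experiment 1. The cause was not tested.

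Deviations of same-numbered arrays from their group mean correlated at -0.0521 in experiment 1 and at 0.00620, -0.146 and 0.230 in experiment 2. Only number 3 of experiment 2 had its own number as the best match. With 2 or 3 arrays in a group the deviations constrain each other. The check therefore cannot decide whether the numbers pair the arrays. With the replicate block 44 members were higher and 11 had an unadjusted p under 0.05 (9 shared with the fit without it), with 12 in experiment 1 and 7 in experiment 2. With that block the background was 4.73%, 4.26% and 3.82% of all tested and 8.04%, 8.15% and 4.15% of the dimmest 25% over both experiments, in experiment 1 and in experiment 2. The log2 values have no detection call, so no limit of detection was set. Of the 11 members higher at an unadjusted p under 0.05 over both experiments, 9 had a mean level above the mean lower quartile and 2 below it. Below it lay 56.9% of all 51 members and 23.8% of all tested probe sets.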

Other observations

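The array also carries probe sets that several members share, which were not counted among the 51. The probe set shared by Taar8a, Taar8b and Taar8c had a mean level of 7.33, above the mean array median of 7.03, while the single-gene probe sets of Taar8b and Taar8c lay below the array lower quartile. Its levels were 7.60 and 7.30 on the ethanol arrays and 7.01 and 7.40 on the controls of experiment 1, and 7.34, 7.35 and 7.26 against 7.35, 7.47 and 7.19 in experiment 2. The groups overlapped in both experiments, and the difference over both was 0.09. The probe set shared by Taar7a, Taar7b, Taar7d, Taar7e and Taar7f had a mean level of 6.10 and a difference of 0.01, with 0.16 in experiment 1 and -0.10 in experiment 2, while the single-gene probe sets of Taar7b, Taar7d and Taar7e had 0.15, 0.21 and 0.21.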
